A study of Mus musculus with 7 samples.

Results

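Mir483 and Mir675 are a pair of microRNA genes of the imprinted Igf2-H19 domain. Their 4 mature strands, mmu-miR-483-3p, mmu-miR-483-5p, mmu-miR-675-5p and mmu-miR-675-3p (written below without the species prefix), were taken by name from 1908 mature miRNAs listed for 7 small RNA libraries of mouse embryonic spinal cells. At E10.5, cells of Hb9::gfp embryos, in which GFP under Hb9 control marks motoneurons, were sorted into GFP-positive motoneurons (2 libraries) and GFP-negative non-motoneuron cells (2 libraries). At E12.5, the GFP-positive motoneurons of Hb9::gfp embryos, tdTomato-positive V2a interneurons of Chx10::cre;Rosa26::LSL::tdTomato embryos and tdTomato-positive V3 interneurons of Sim1::cre;Rosa26::LSL::tdTomato embryos gave 1 library each. In the Cre lines the reporter stays on in every descendant of a cell that once expressed the driver. Whether the replicate libraries are separate litters or sorts is not in the labels, so the p-values cover the spread among these libraries, possibly a technical one, and no more.

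Igf2 encodes a fetal growth factor and is transcribed from the paternal chromosome, while the noncoding RNA H19 is transcribed from the maternal chromosome of the same domain. Both are abundant in embryonic mesoderm and its derivatives and low in most neurons. miR-483 is carried by the Igf2 transcript. miR-675 is cut from H19 itself and is known for restraining growth, with the receptor gene Igf1r among its described targets. Each hairpin gives a strand from its 5′ side (5p) and a strand from its 3′ side (3p), and the seed, bases 2 to 8, guides pairing with target mRNAs.

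The mature sequences are shown because the results turn on which strand of which hairpin was read. They are RefSeq entries on GRCm38, written 5′ to 3′ with the seed in capitals.
miR-483-3p: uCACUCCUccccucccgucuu
miR-483-5p: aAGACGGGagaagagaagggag
miR-675-5p: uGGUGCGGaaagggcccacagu
miR-675-3p: cUGUAUGCccuaaccgcucagu
The 4 seeds differ from each other. Of the listed miRNAs, 1603 had a RefSeq mature sequence, and none of the others among them shared a seed with any of the 4 strands.

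The hairpins are printed with the mature strands in capitals, to show how each pair of strands sits.
Mir483: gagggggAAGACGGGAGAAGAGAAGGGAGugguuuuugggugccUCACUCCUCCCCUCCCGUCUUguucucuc
Mir675: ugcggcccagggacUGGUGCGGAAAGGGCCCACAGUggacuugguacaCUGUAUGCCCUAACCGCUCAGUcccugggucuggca
Mir483 spans chr7:142654924-142654996 on the minus strand of GRCm38. In GENCODE vM21 it lay in an intron of all 7 Igf2 transcripts that span it and in no Igf2 exon. Mir675 spans chr7:142577064-142577147, also on the minus strand. It lay within an exon of 3 H19 transcripts and an intron of 1. The hairpins are 77.8 kb apart. The first 10 bases of miR-483-5p are the exact reverse complement of the last 10 bases of miR-483-3p. miR-483-5p holds 21 purines in 22 bases, the highest purine share among the 1603 sequences, and miR-483-3p holds 19 pyrimidines in 21 bases, with 0.312% of the sequences as poor in purines. The longest exactly complementary run between the miR-675 strands is 5 bases. RNAfold gave a minimum free energy of -33.8 kcal/mol for Mir483 and -56.0 kcal/mol for Mir675, with 16 bases of the 5p strand paired to the 3p strand in each.

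Depth was 493234 to 802747 reads in the E10.5 libraries and 3603533 to 4605395 in the E12.5 libraries, as recovered from the size of 1 read in the tables. Where no read was found, up to 3 reads remain possible, equal to 3.74 to 6.08 RPM (reads scaled to a library total of 1000000) at E10.5 and to 0.667 to 0.844 TPM (the same total after correction for length) at E12.5. Such limits and all counting intervals cover counting error only. Replicate libraries correlated across the 492 tested miRNAs at Pearson r = 0.975 in motoneurons and 0.984 in GFP-negative cells, as a description. miR-218-5p, the motoneuron marker, stood at 177885 and 200305 RPM in the E10.5 motoneuron libraries against 6623 and 7315 RPM in GFP-negative cells, and at 104198 TPM in E12.5 motoneurons against 7558 in V2a and 7282 in V3. At E10.5 motoneurons had 57 miRNAs called higher and 151 called lower (limma with Benjamini-Hochberg adjustment at 0.05). The split was 85 and 118 after scaling by the median of ratios, 105 and 116 with totals that leave out the 5 most abundant miRNAs, and 114 and 100 after quantile normalization. The median over the tested miRNAs, on the log2 scale, moved from -0.34 as deposited to -0.07, 0.03 and 0.15 under these scalings.

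The E10.5 comparison asked how the strands of this domain differ between motoneurons and the GFP-negative spinal cells. Both miR-483 strands were among the commoner miRNAs of GFP-negative cells and were 27.4-fold (5p) and 35.8-fold (3p) lower in motoneurons. miR-675-5p was read in both GFP-negative libraries and in neither motoneuron library. Both miR-483 strands were called lower in motoneurons, as were 30.7% of all tested miRNAs. Of the miR-675 strands, 5p reached the abundance needed for testing only through the GFP-negative libraries and 3p did not reach it. The miR-483 strands also needed the GFP-negative libraries to reach 15.2 RPM in 2 libraries, as motoneuron replicate 2 lay below it. With only all-zero rows removed, both had a limma adjusted p of 0.000815. These strands were listed with the difference already known, so their calls describe them and add no independent evidence.

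miR-483-3p, the strand carried on the 3′ side of the Igf2 intron hairpin, stood at 1149.87 and 755.61 RPM in GFP-negative replicates 1 and 2, and at 41.11 and 12.16 RPM in motoneuron replicates 1 and 2. The groups did not overlap, and the lowest GFP-negative library lay 18.4-fold above the highest motoneuron library. Of all 492 tested miRNAs, 48.6% likewise had both motoneuron libraries below both GFP-negative ones. The means were 953 ± 279 RPM (SD, n = 2) and 26.6 ± 20.5 RPM (SD, n = 2). The log2 fold change was -5.31. With only all-zero rows removed, its standard error was 0.52 and the limma adjusted p was 0.000815. As the strand met the abundance filter only with the GFP-negative libraries, its p from the filtered fit is not given. miR-483-3p ranked 99 of 977 and 115 of 962 detected miRNAs in the GFP-negative libraries. In the motoneuron libraries it ranked 336 of 960 and 454 of 886.

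miR-483-5p, the opposite strand of the same hairpin, stood at 901.63 and 714.76 RPM in GFP-negative cells and at 44.85 and 14.19 RPM in motoneurons. Again both GFP-negative libraries were high and both motoneuron libraries low, without overlap. The means were 808 ± 132 RPM (SD, n = 2) and 29.5 ± 21.7 RPM (SD, n = 2). The log2 fold change was -4.93. With only all-zero rows removed, its standard error was 0.49 and the limma adjusted p was 0.000815. The p from the filtered fit is again not given. Within motoneurons, replicate 1 held 3.38 times the miR-483-3p level and 3.16 times the miR-483-5p level of replicate 2. Those values rested on 33 and 36 reads in replicate 1 against 6 and 7 reads in replicate 2. Without motoneuron replicate 1 the log2 fold changes were -6.15 for miR-483-3p and -5.73 for miR-483-5p, and without replicate 2 they were -4.47 and -4.13. Quantile normalization gave -4.71 and -4.34.

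**Figure D1:**
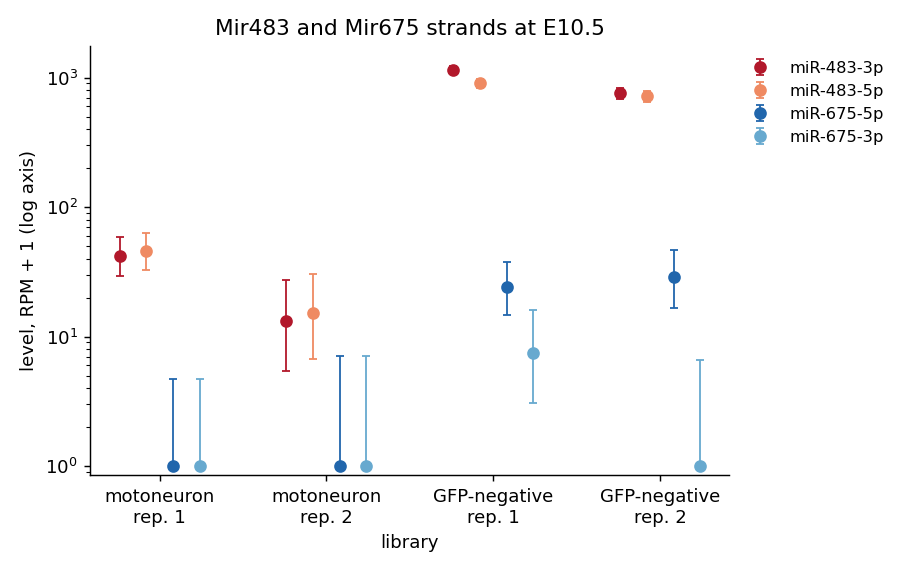
Level of the 4 strands in each E10.5 library, as RPM + 1 on a log axis, with bars giving the exact 95% Poisson interval of the reads, or reaching up to 3 reads where none was found. Both miR-483 strands lie at 714.76 RPM or above in the GFP-negative libraries, with no motoneuron library above 44.85 RPM, and miR-675-5p is at 0 in both motoneuron libraries.

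miR-675-5p, cut from H19, was far scarcer than either miR-483 strand of about the same length. It stood at 23.15 and 27.85 RPM in GFP-negative cells, from 18 and 15 reads, and at 0 in both motoneuron libraries. The GFP-negative mean was 25.5 ± 3.32 RPM (SD, n = 2). Set against the 3 reads that a count of 0 allows in each motoneuron library, a mean of 4.91 RPM, the level in motoneurons was at least 5.19-fold lower. The fitted log2 fold change was -4.72. Because the motoneuron values are 0, it depends on the pseudocount, at -2.60 with a pseudocount of 5 and -6.68 with 0.25, and it was -3.29 after quantile normalization. As a strand that passed the abundance filter only where it is high had to differ, its p from that fit is not given. With only all-zero rows removed, over 1270 miRNAs, the standard error was 0.72. There too the strand entered only through the GFP-negative libraries, so that p is not given either. With either GFP-negative library left out, or with the filter set on the mean of the 4 libraries, miR-675-5p missed the filter.

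miR-675-3p, the opposite strand, was below the filter. It was read 5 times in GFP-negative replicate 1 (6.43 RPM) and was at 0 in the other 3 E10.5 libraries. No difference between the groups was detectable for it at this depth.

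**Figure D2:**
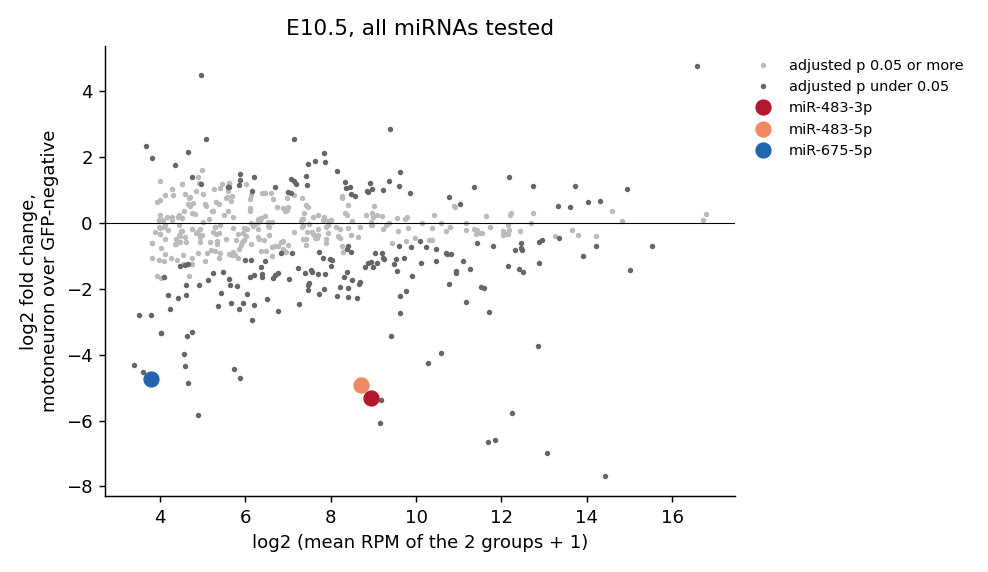
Log2 fold change of motoneuron over GFP-negative libraries against the mean level, for the 492 miRNAs tested at E10.5. The 3 tested strands sit near the lower edge, at -5.31, -4.93 and -4.72, and the position of miR-675-5p depends on the pseudocount because both motoneuron libraries are at 0.

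By fitted log2 fold change, miR-483-3p was the 9th and miR-483-5p the 10th lowest of 492. The miRNAs with the most similar profiles over the 4 E10.5 libraries were sought by the root mean square difference of centred log2 values, given here as a description. For miR-483-3p the nearest was its own partner miR-483-5p (0.21), followed by miR-143-3p (0.43), miR-206-3p (0.49), miR-214-5p (0.50) and miR-574-3p (0.52). For miR-483-5p they were miR-483-3p (0.21), miR-574-3p (0.35), miR-145a-5p (0.37), miR-199a-3p (0.38) and miR-143-3p (0.50). For miR-675-5p the nearest were miR-365-3p (0.13) and miR-592-5p (0.23), both also at 0 in the motoneuron libraries, then miR-574-3p (0.35), miR-145a-5p (0.47) and miR-199a-3p (0.48). miR-143, miR-145 and miR-199 are known from smooth muscle and mesenchyme, and miR-206 from skeletal muscle. The deposited rows of miR-199a-3p and miR-206-3p lie in bundles with near-identical miRNAs, so their own levels are uncertain.

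Mesenchymal and muscle markers were lower in motoneurons along with these strands. The endothelial call depended on the scaling, and the tested blood and liver miRNAs were not called. All 10 mesenchymal and smooth muscle miRNAs were lower in motoneurons, beside 30.7% of all tested miRNAs. Their median log2 fold change was -5.94 against -0.34 over all tested miRNAs. Some of the 10 met the abundance filter only through the GFP-negative libraries, where they are high. An example is miR-145a-5p, at a mean of 4.13 RPM in motoneurons and 101 RPM in GFP-negative cells. The same holds for some of the muscle miRNAs below. Such calls had to come out lower and add no support. The 10 are 5p and 3p strands of the same miRNAs, and so not 10 separate markers. Their summed level was 81413 and 94289 RPM in GFP-negative cells against 1571 and 424 RPM in motoneuron replicates 1 and 2, with 1 and 2 of the 10 at 0. Motoneuron replicate 1 thus held 1.79% of the GFP-negative mean and replicate 2 held 0.482%. The same share was 4.31% and 1.28% for miR-483-3p, and 5.55% and 1.76% for miR-483-5p. For 4 skeletal and cardiac muscle miRNAs it was 8.89% and 3.25%, with none at 0, and 3 of 3 tested were lower, or 2 of 3 after quantile normalization. For the endothelial pair it was 61.5% and 35.7%, and the tested member, miR-126a-3p, was lower as deposited (-1.07) but was not called after scaling by the median of ratios (-0.79), without the 5 most abundant (-0.69) or after quantile normalization (-0.47). For these 3 lists, as for both miR-483 strands, replicate 1 of the motoneurons was above replicate 2. The blood miRNAs stood at 100.5% and 71.4%, in the same order. The liver marker stood at 82.5% and 103.6% and the neuronal miRNAs at 125% and 144%, with replicate 2 above replicate 1. Most of the neuronal sum was miR-9-5p, at a mean of 27797 RPM in motoneurons and 21331 RPM in GFP-negative cells. The blood list had 1 tested member, miR-486-5p, and the liver marker miR-122-5p stood alone, with log2 fold changes of 0.15 and -0.11 that did not pass (0.42 and 0.16 with the median of ratios). The row of miR-486-5p is also bundled with near-identical miRNAs. Of 5 neuronal miRNAs 2 were higher and none lower, beside 57 higher of all 492 tested. With the median of ratios or without the 5 most abundant, 3 were higher, beside 85 and 105 of all tested. The part of these other cell types in the miR-483 and miR-675 results was not tested, and in sorted bulk samples fewer cells of a type and less RNA per cell cannot be told apart.

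**Figure D3:**
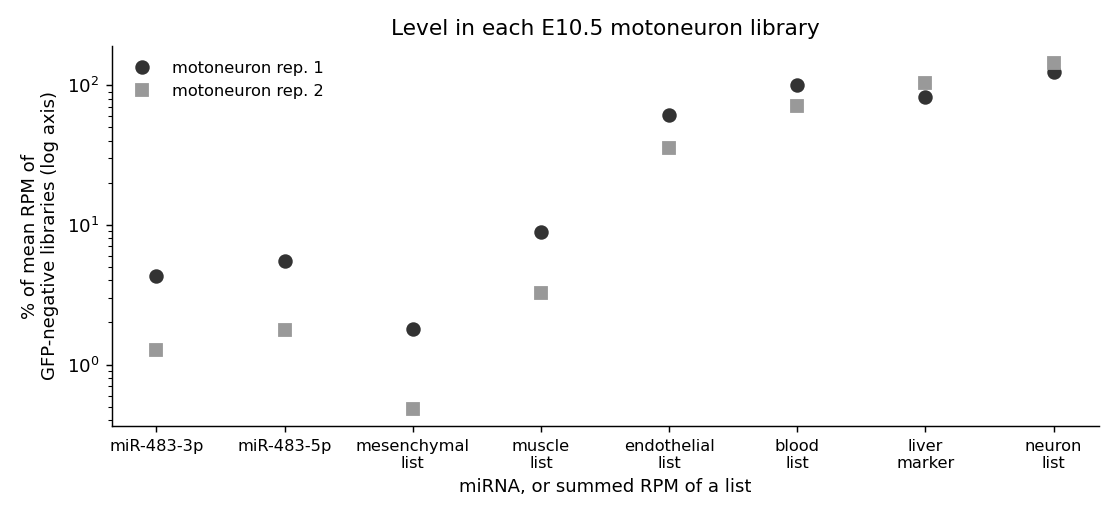
Level in each E10.5 motoneuron library as a percentage of the mean RPM of the GFP-negative libraries, on a log axis, for both miR-483 strands and for the summed RPM of 6 marker lists. Replicate 1 lies above replicate 2 except for the liver marker and the neuron list, and the miR-483 strands, at 1.28% to 5.55%, lie between the mesenchymal and the muscle lists.

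The balance between the strands of Mir483 was next compared, since it does not depend on how the library was scaled. At E10.5 the 3p strand made up 56.1% of the reads of both strands (95% exact Clopper-Pearson interval 53.6% to 58.5%) in GFP-negative replicate 1 and 51.4% (47.8% to 54.9%) in replicate 2. In the motoneuron libraries it made up 47.8% (35.6% to 60.2%) of 69 reads and 46.2% (19.2% to 74.9%) of 13 reads. The log2 ratio of 3p over 5p was 0.38 lower in motoneurons (log2 difference -0.38, SE 0.43, 95% interval -1.46 to 0.70, limma adjusted p = 0.747 over 216 hairpins), which did not pass the threshold. No hairpin passed in that limma fit (0%), and 18 had an unadjusted p under 0.05. The 3p share thus lay between 46.2% and 56.1% in all 4 libraries. For Mir675 the 3p strand made up 21.7% (7.46% to 43.7%) of 23 reads in GFP-negative replicate 1 and 0 of 15 reads in replicate 2, where up to 3 reads, or 20%, remain possible.

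The E12.5 libraries show the strands in 3 neuron types, with 1 library each and hence no test. The levels are in TPM from a separately scaled table, and no fold is taken between the stages. All 4 strands were scarce in motoneurons and V2a cells, at 11.0 TPM or less. In V3 cells miR-483-5p reached 41.6 TPM, while miR-483-3p did not follow it.

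miR-483-5p stood at 0.563 TPM in motoneurons (2 reads), 1.78 TPM in V2a (8 reads) and 41.6 TPM in V3 (173 reads). V3 was thus high and the other libraries low. The ratio of read rates was 23.3 for V3 over V2a (95% counting interval 11.6 to 54.9) and 73.0 for V3 over motoneurons (19.9 to 608). The lower pair, V2a and motoneurons, did not differ beyond counting error, with a ratio of 3.13 (0.625 to 30.3). Of 607 miRNAs considered, 5 (0.824%) lay at least 4-fold above both other libraries in V3, and miR-483-5p was among them. Its excess was 15.3-fold on the TPM + 1 scale, which ranked 1 of 607, or 1 of 1689 with only all-zero rows removed. The strand reached the 30 reads needed to be considered only in V3, where it is high. Its call and rank therefore describe it and add no support. With a pseudocount of 10 TPM the excess was 4.38-fold and ranked 4, after let-7b-5p, miR-375-3p and miR-128-1-5p. No strand of the 4 was among the 19 miRNAs called higher in V2a (3.13%) or the 10 called higher in motoneurons (1.65%).

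miR-483-3p stood at 3.78 TPM in motoneurons, 8.01 TPM in V3 and 11.0 TPM in V2a, from about 13, 32 and 47 reads. Its reads were not whole in this table (12.8, 31.8 and 47.2), so the counts are approximate. V2a and V3 did not differ beyond counting error, with a ratio of read rates of 1.36 (0.851 to 2.21). Motoneurons were lowest. V2a stood 2.83-fold (1.51 to 5.70) and V3 2.08-fold (1.06 to 4.31) above them, both under the 4-fold rule.

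miR-675-5p had 14 reads in V2a (3.11 TPM) and a single read in each of the other libraries, 0.281 TPM in motoneurons and 0.240 TPM in V3. It was below the abundance of 30 reads and was not considered for a call. The ratio of V2a over V3 was 13.0 (95% counting interval 1.97 to 549) and that of V2a over motoneurons 11.0 (1.67 to 463). miR-675-3p was at 0 in all 3 libraries. V2a was thus the highest of the libraries for miR-675-5p and V3 for miR-483-5p.

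**Figure D4:**
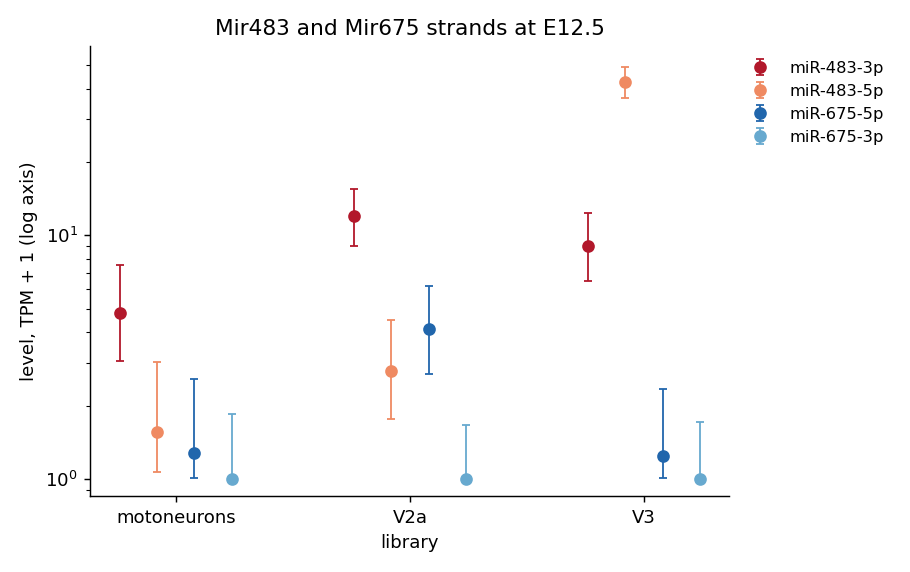
Level of the 4 strands in each E12.5 library, as TPM + 1 on a log axis, with bars giving the exact 95% Poisson interval of the reads, or reaching up to 3 reads where none was found, and 1 library per population. miR-483-5p is at 41.6 TPM in V3 and below 2 TPM in the other libraries, while miR-483-3p spans 3.78 to 11.0 TPM.

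The strand balance of Mir483 therefore differed between the E12.5 libraries. The 3p strand made up 86.7% (95% exact Clopper-Pearson interval 59.5% to 98.3%) of 15 reads in motoneurons and 85.5% (73.3% to 93.5%) of 55 reads in V2a. In V3 it made up 15.6% (10.9% to 21.3%) of 205 reads, so the major strand was 3p in the first pair of libraries and 5p in V3, with intervals that do not overlap. On the scale of log2 (3p + 1 over 5p + 1) in TPM, V3 differed from V2a by -4.35 and from motoneurons by -3.85. A shift of at least 4-fold from both other libraries in 1 direction was seen for 22 of 353 hairpins (6.23%), and by the smaller of the 2 shifts Mir483 ranked 2 among them, after miR-669f. That number depends on the pseudocount, at 52 hairpins with 0.25 TPM and 2 with 10 TPM, where the smaller shift of Mir483 was -1.90 and under 4-fold. This comparison was chosen after the values were seen. The profiles nearest to miR-483-5p over the 3 libraries were those of miR-375-3p (root mean square difference 0.53), let-7b-5p (0.84), miR-1966-5p (0.95), miR-6977-3p (1.04) and miR-879-5p (1.15). For miR-483-3p they were miR-135a-1-3p (0.0085), miR-6538 (0.039), miR-6236 (0.039), miR-1258-5p (0.053) and miR-7658-5p (0.063). With 3 libraries such likeness is a description only. In motoneurons, V2a and V3 the mesenchymal miRNAs added up to 199, 249 and 310 TPM, with 2, 1 and 1 of its 10 members at 0. The muscle miRNAs added up to 126, 221 and 63.0 TPM and the endothelial pair to 177, 405 and 174 TPM in the same order. The blood miRNAs added up to 113, 36.9 and 8.57 TPM, and the liver marker stood at 169, 107 and 78.1 TPM. The neuronal miRNAs added up to 74739, 75684 and 161093 TPM, highest in V3. Their part in the V3 result was not tested.

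**Figure D5:**
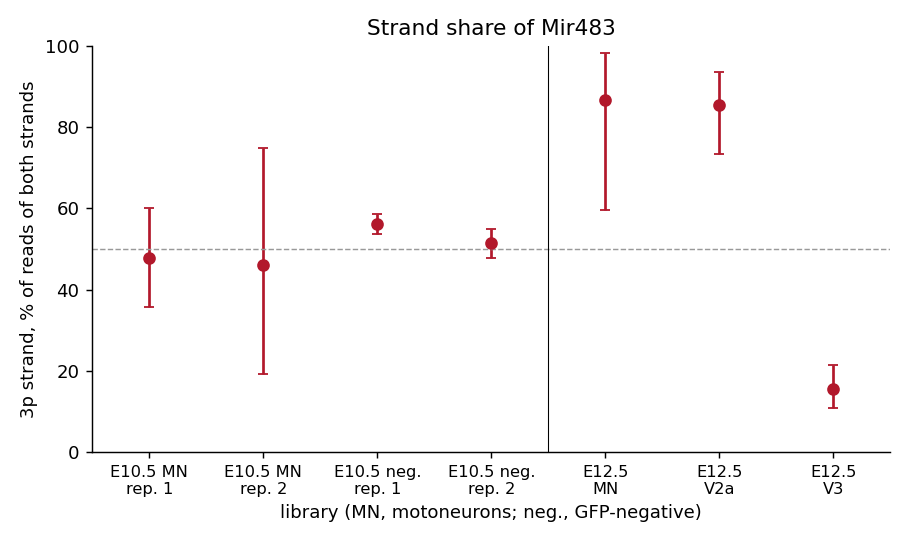
Share of the 3p strand among the reads of both Mir483 strands in each of the 7 libraries, with bars giving the exact 95% binomial interval and a dashed line at equal shares. The E10.5 libraries lie between 46.2% and 56.1%, E12.5 motoneurons and V2a at 86.7% and 85.5%, and V3 at 15.6%.

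Other imprinted miRNAs were listed for comparison at E10.5. Mest and Gnas are imprinted genes that also carry miRNAs. Of 5 tested strands, 2 were lower and 1 higher in motoneurons, beside 151 lower and 57 higher of all 492 tested miRNAs. For miR-335-3p, from Mest, the log2 fold change was -3.74, with a standard error of 0.17 and a limma adjusted p of 3.57e-05, and its partner miR-335-5p -2.71, smaller than those of the miR-483 strands. From the Gnas domain, miR-296-3p rose by 1.13, while miR-296-5p (-0.67) and miR-298-5p (0.31) did not pass. miR-298-5p was called higher under each of the 3 other scalings (0.59 to 0.99). In the Dlk1-Dio3 domain 34 of 71 tested members were lower and 1 was higher, with a median of -0.78, beside 30.7% lower and a median of -0.34 over all tested miRNAs. Under those scalings 18 to 23 of the 71 were lower and 2 or 3 higher, beside 100 to 118 lower and 85 to 114 higher of all 492. Their median ran from -0.51 to -0.27, against -0.07 to 0.15 over all tested miRNAs. The commonest Dlk1-Dio3 member, miR-370-3p, stood at 0.08 as deposited.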

How the data were processed

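Small RNA was sequenced from sorted spinal cells (NEBNext small RNA libraries, per the labels' protocols). Per the submitters' processing notes Bowtie2 was used, without a version. Not given in the sources used here: counting program, genome build, miRNA annotation. Values of E10.5 were deposited as RPM, with each library summing to 1000000, and the authors' group means in RPM equal the means of the library columns to within 0.005. The E12.5 table has no unit in its header and was read as FPKM as deposited, because low values of 22 nt miRNAs fall on steps of 1 read and other lengths scale with them. It was rescaled to a sum of 1000000 per library (TPM). Within 0.05 of a whole read lay 88.3% to 91.6% of low E10.5 values and 72.2% to 79.0% of low E12.5 values. No count test was therefore used. The counting intervals and strand shares were taken from reads rounded to whole numbers, so they are approximate and serve as a description. The 4 strands share no bundle of rows with another miRNA at E10.5.

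For E10.5, limma 3.58.1 was run in R 4.3.3 (two-sided, mean-variance trend, Benjamini-Hochberg, threshold 0.05) on log2(RPM + 1), for miRNAs with at least 15.2 RPM (the value of 10 reads at median depth) in 2 or more libraries. The pseudocount shrinks log2 fold changes of scarce miRNAs. Strand ratios were fitted likewise, over hairpins with both strands above 0 in at least 2 libraries. At E12.5, miRNAs with 30 reads in at least 1 library were considered. The fit was run on simulated reads with the same spread for every miRNA, which is no check of the p-values of these strands. RNAfold 2.7.2 folded the hairpins. Coordinates are from RefSeq and GENCODE vM21 on GRCm38. Named miRNAs are the 4 strands, the 5 nearest profiles, and the most abundant member of each list or those the text names as its tested members. The strands, lists and tests were chosen with earlier results of these data known. Alternatives covered scaling, pseudocount, filters, replicate block and each library left out.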

Additional observations from a re-analysis of the deposited data

How the results depend on the processing

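The fall of miR-483-3p and miR-483-5p in E10.5 motoneurons kept its direction in all 12 alternatives. As the groups did not overlap, leaving out 1 library could not reverse the fall. With only all-zero rows removed, the limma adjusted p was 0.000815 for both strands. The other alternatives used a filter that both strands met only with the GFP-negative libraries. Their adjusted p is not given, and they add no support. miR-675-5p could not be tested in 3 of the 12, the filter on the mean of 4 libraries and either GFP-negative library left out. In the other 9 its log2 fold change stayed negative. In each of these it entered the fit only through the libraries where it is high. Their adjusted p is therefore not given, and they add no support. With 1 library left out in turn, log2 fold changes ran from -6.15 to -4.47 for miR-483-3p and from -5.73 to -4.13 for miR-483-5p. For miR-675-5p only the motoneuron libraries could be left out, and as both are at 0 the value of -4.72 could not move. The Mir483 strand ratio ran from -0.52 to -0.24 and never passed. Counts of miRNAs lower in motoneurons ran from 106 to 125 and higher from 27 to 48 when 1 library was left out; where that leaves a group with 1 library, it is assumed to vary like the others. Lower calls numbered 100 under quantile normalization. Higher calls numbered 105 without the 5 most abundant, 114 under quantile normalization and 34 with only all-zero rows removed. With the replicate number as a block the log2 fold changes were the same, 162 miRNAs were lower, 67 higher and 5 hairpins changed their strand ratio (against 0). Deviations of same-numbered libraries correlated at 0.26, but the labels do not tie the numbers to shared material. At E12.5, V3-high miRNAs numbered 8 without the 5 most abundant and 12 with only all-zero rows removed; V2a-high ones 11, 7 and 36, and motoneuron-high ones 5, 3 and 21, under scaling (median of ratios for V2a, totals without the 5 most abundant for motoneurons), a pseudocount of 10 and only all-zero rows removed. The V3 excess of miR-483-5p was 2.13 (log2) with a pseudocount of 10, against 3.94, past 4-fold but ranked 4 and no longer 1. Alternatives for the V3 strand ratio were chosen after seeing the data: with pseudocounts of 0.25 and 10 the smaller shift was -4.65 and -1.90, and 52 and 2 of 353 hairpins passed, against 22. Except where a pseudocount or filter sets the value directly, the cause was not tested. Depth limits the E12.5 motoneuron strand share, which rests on 15 reads, and all statements on miR-675.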
